A study of Mus musculus with 6 samples.

Results

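The spliceosome and SR protein genes described here were the 62 protein-coding genes of the GENCODE M21 annotation (mouse genome mm10, GRCm38) whose symbol starts with Srsf, Sf3a, Sf3b, Snrp, Prpf, Lsm or U2af, out of 22028 protein-coding genes. The rule used the names alone and no value of the peak lists. By role they comprised 11 SR proteins, 3 U2AF proteins, 9 subunits of SF3a and SF3b, 4 proteins specific to the U1 or U2 particle, 8 Sm proteins, 7 proteins of the LSM2 to LSM8 ring, 13 PRPF proteins and 7 other genes with an LSM name. The last 7 do not belong to the spliceosome: Lsm1 acts in mRNA decay, Lsm10 and Lsm11 in histone mRNA processing, Lsm14a and Lsm14b in cytoplasmic mRNA granules, and Lsmem1 encodes a membrane protein that shares only the first letters of the symbol.

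The spliceosome removes introns from nascent transcripts and is built from small nuclear RNAs with their proteins. Sm proteins form a ring on most of these RNAs, and the LSM2 to LSM8 ring sits on the U6 RNA. U2AF recognises the end of the intron, SF3a and SF3b hold the U2 particle at the branch point, PRPF proteins act in the tri-snRNP and in activation, and SR proteins bind exons and recruit the machinery. Their genes are used by nearly all cells, and CDK6, the kinase whose chromatin contacts were measured, has no DNA-binding domain of its own.

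The cells were murine pre/pro-B cell lines transformed by BCR::ABL1 (p185). They were Cdk6-/- and had been transduced to overexpress HA-tagged CDK6, either CDK6-WT or the kinase inactive CDK6-K43M, so that the tagged protein was the only CDK6 present in both groups. Each variant had 2 libraries, numbered replicate 1 and replicate 2. Chromatin contacts were measured by ChIP-seq with an antibody to HA after fixation with DSG and formaldehyde, and 2 input libraries of the series were not analysed here. Nothing in the labels says whether the replicates came from separate cultures, so differences between libraries can only be read against the spread of these 4 samples, which may be technical. The question the comparison of the variants addresses is whether contact with chromatin depends on the kinase activity.

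The authors called peaks separately in each library, and CDK6-WT replicates 1 and 2 gave 35189 and 34729 peaks and the CDK6-K43M replicates 39797 and 37304. A promoter began 2000 bp before any transcript start of a gene and ended 200 bp after it, and a gene had a promoter peak where a peak overlapped it. Peak strength was expressed as the percentile of the −log10 q of the strongest promoter peak among all peaks of its own list, so that 100 stands for the strongest peak of that library. The lists give no read totals. Reads at the summit, recovered from the fold enrichment and the p-value of each peak, ranged from 8 to 83 for these genes, against local backgrounds with medians near 1.8 reads (1.79 to 1.90 by list). Summit reads are given before the scaling factor of each list, so that counts of different libraries are not on one scale. Of 10 B-lineage genes, 9 had a promoter peak in all 4 lists, a share that widely used genes also approach, so that presence of a peak does not check the cell type. In replicate 1 their median percentiles were 89.09 with CDK6-WT and 92.35 with CDK6-K43M, against 89.39 and 91.31 for the 62 genes. In replicate 2 they were 93.4 and 90.35, against 59.34 and 58.35. Whether this difference reflects the cell type was not tested.

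A promoter peak in all 4 lists was found at 49 of the 62 genes (79.0%), against 33.2% of all protein-coding genes. In at least 3 lists a peak was found at 53 genes (85.5%, against 41.3%), and no list held one at 3 genes (4.84%, against 48.2%). The 3 genes without a peak were Sf3b5, Snrpn and Srsf12, and the 4 genes with a peak in 3 lists were Prpf18, Prpf40b, Snrpd2 and Snrpf. The remaining 6 genes, Lsm1, Prpf39, Prpf8, Sf3a1, Snrpg and Srsf5, were found in the pair of replicate 1 lists but not in those of replicate 2 (9.68%, against 5.67%). Without the 7 genes outside the spliceosome, 43 of 55 (78.2%) had a peak in all 4 lists.

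By library, CDK6-WT replicate 1 held a promoter peak at 59 of the 62 genes, where 47.0% of all protein-coding genes had one. In CDK6-WT replicate 2 the count was 50, with 40.1% of all genes. CDK6-K43M replicates 1 and 2 held 59 and 52, with 48.5% and 39.4% of all genes. The genes of the family thus exceeded the genome-wide share in every library, and both replicate 1 lists held the same number.

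The excess over other genes depended on how CpG-rich the promoters were and on how strong a peak had to be. Around the start of the gene model, the ratio of observed to expected CpG in a 1000 bp window had a median of 0.822 for the 62 genes and 0.553 for all genes, and it was at least 0.6 in 54 of them (87.1%, against 46.0%). Among genes at or above this ratio, 44 of 54 (81.5%) had a peak in all 4 lists, against 55.7% of all such genes. With peaks restricted to a −log10 q of at least 5, 34 of the 62 genes (54.8%) and 23.5% of all genes kept a promoter peak in all 4 lists. At a −log10 q of at least 10 the shares were 12.9% (8 genes) and 8.41%, and among the 10000 strongest peaks of each list they were 8.06% (5 genes) and 5.98%. The narrower distance applied to strong peaks required in all 4 lists. Within single libraries, promoter peaks above percentile 90 were found at 45.2% of the family and 12.8% of all genes in CDK6-WT replicate 1, and at 51.6% and 14.3% in CDK6-K43M replicate 1. In replicate 2 these shares were 8.06% and 3.40% with CDK6-WT and 6.45% and 3.55% with CDK6-K43M, so that few of the genes reached that percentile there.

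**Figure D1:**
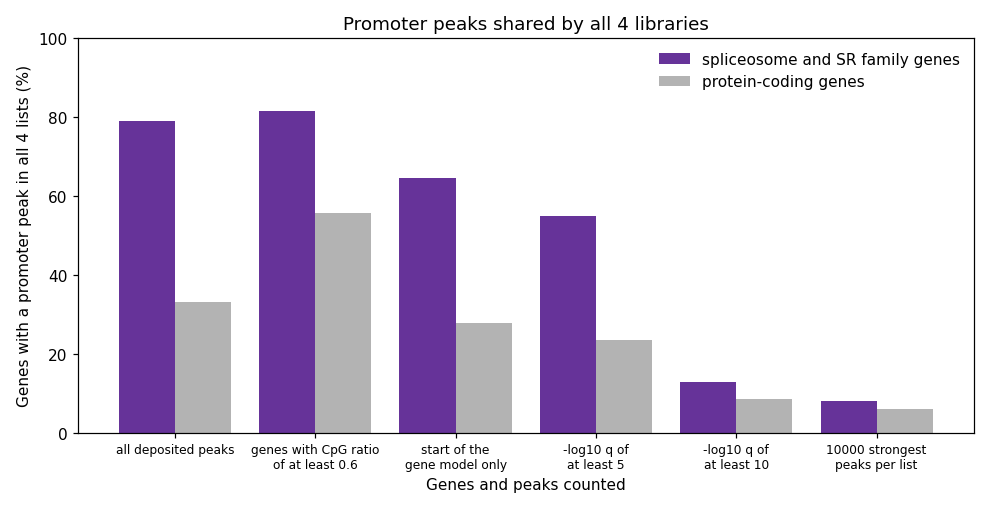
Bars give the share of genes (%) with a promoter peak in all 4 lists, for the 62 spliceosome and SR family genes and for protein-coding genes, under 6 ways of counting along the horizontal axis. The shares were 79.0% and 33.2% with all deposited peaks, 81.5% and 55.7% among CpG-rich promoters, and 12.9% and 8.41% at a −log10 q of at least 10.

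Sequence is shown for the 3 genes with the highest mean percentile, and for Sf3b5 and Snrpn, which had no peak in the GENCODE promoter window. Stretches with and without a peak over them are thus set side by side. The Sf3b5 stretch precedes the GENCODE start, whereas that of Snrpn precedes a RefSeq start (base 60450177) outside the GENCODE gene model. Each stretch holds the 150 bases directly upstream of an annotated first exon, read 5′ to 3′ on the strand of the gene from the RefSeq GRCm38 genome. Capitals mark a match to one of the motifs searched below that lies wholly inside the stretch. The ETS motif of Sf3a3, printed below, runs past the end of its stretch and is not marked here. The stretches lie at chr7:66060186-66060335 (+ strand, Snrpa1), chr4:124714626-124714775 (+, Sf3a3), chr11:88047223-88047372 (+, Srsf1), chr10:13005193-13005342 (+, Sf3b5) and chr7:60450178-60450327 (− strand, Snrpn).
Snrpa1: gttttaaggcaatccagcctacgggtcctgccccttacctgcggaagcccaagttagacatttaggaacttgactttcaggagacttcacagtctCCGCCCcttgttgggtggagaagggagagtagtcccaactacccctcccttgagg
Sf3a3: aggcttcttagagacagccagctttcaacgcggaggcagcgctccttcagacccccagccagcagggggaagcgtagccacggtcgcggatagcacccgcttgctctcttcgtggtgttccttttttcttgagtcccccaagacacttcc
Srsf1: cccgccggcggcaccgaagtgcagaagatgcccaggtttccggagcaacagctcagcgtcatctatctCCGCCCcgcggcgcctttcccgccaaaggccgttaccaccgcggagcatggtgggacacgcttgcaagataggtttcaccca
Sf3b5: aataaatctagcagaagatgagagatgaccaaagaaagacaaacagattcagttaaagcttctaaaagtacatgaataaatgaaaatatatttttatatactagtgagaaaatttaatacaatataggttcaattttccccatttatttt
Snrpn: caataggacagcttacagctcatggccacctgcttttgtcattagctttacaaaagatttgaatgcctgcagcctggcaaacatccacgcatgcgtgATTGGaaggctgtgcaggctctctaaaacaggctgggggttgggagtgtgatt
The 150 bases held 3, 9 and 15 CpG in Snrpa1, Sf3a3 and Srsf1 and 0 and 2 in Sf3b5 and Snrpn. These counts do not compare promoters with and without a peak, since Sf3b5 had a peak in all 4 lists at its RefSeq start. A peak of all 4 lists lay over the printed bases of Sf3a3 and Srsf1 and a peak of 2 lists over those of Snrpa1, whose summits lay further downstream.

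For Sf3b5, a small subunit of SF3b, the absence of a promoter peak depended on the annotation. The gene model spans chr10:13005343-13009183, whereas RefSeq starts the transcript at base 13008450 of the same chromosome, inside the GENCODE gene body. All 4 lists held a peak there, with summits at −77 and −138 bp from the RefSeq start in CDK6-WT replicates 1 and 2 and at −98 and −84 bp in CDK6-K43M, where negative values lie upstream. The percentiles of these peaks were 96.0 and 80.1 with CDK6-WT and 94.7 and 75.1 with CDK6-K43M, with fold enrichments of 17.3, 8.54, 16.1 and 7.62 in the same order. They would place Sf3b5 among the more strongly occupied genes of the family. The CpG ratio was 0.138 around the GENCODE start and 0.840 around the RefSeq start. One CCAAT box, the site of the factor NFY, lay 41 bp downstream of the CDK6-WT replicate 1 summit in this peak, in capitals within the 28 bases at chr10:13008401-13008428 (+ strand).
Sf3b5 peak: cctaggcaactCCAATcccgcgacagac
Sf3b5 was the only one of the 62 genes with peaks inside the gene and outside its promoters in all 4 lists, and 46 genes had none in any list. Such peaks were not counted over all protein-coding genes, so these counts do not describe a trait of the family.

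Snrpn and Srsf12 had no peak near a RefSeq start either. Snrpn encodes an Sm protein that replaces SmB in neurons and is expressed from the paternal allele (chr7:59982495-60140219, − strand). Its nearest peak in any list lay 775248 bp from a start. Srsf12 encodes an SR family protein (chr4:33208991-33233340, + strand), and its nearest peak lay 3984 bp from the start in CDK6-WT replicate 1, at percentile 4.1, and between 38169 and 38276 bp away in the other 3 lists.

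Among the genes with a peak in all 4 lists, Snrpa1, Sf3a3, Srsf1, Lsm4 and Snrpd3 had the highest mean percentiles (96.3, 94.4, 94.3, 91.4 and 87.5). Snrpa1, a U2 snRNP protein (chr7:66059003-66074587), reached percentiles 98.6 and 95.3 in CDK6-WT replicates 1 and 2 and 98.7 and 92.8 in CDK6-K43M. With only the start of its gene model, Snrpa1 had a promoter peak in 0 lists, since its peaks lay at a downstream transcript start. Sf3a3, the subunit of SF3a that contacts the U2 particle (chr4:124714776-124732460), reached 99.9 and 87.8 with CDK6-WT and 98.5 and 91.3 with CDK6-K43M, on 72, 39, 77 and 31 summit reads. For Srsf1, the founding SR protein (chr11:88047373-88053755), the values were 98.2 and 91.3 with CDK6-WT and 95.2 and 92.3 with CDK6-K43M. These 3 genes stayed above percentile 85 in every library. Lsm4, of the U6 ring, and Snrpd3, an Sm protein, were as high in replicate 1 (99.8 and 99.0 for Lsm4, 98.0 and 95.5 for Snrpd3) and in CDK6-WT replicate 2 (94.0 and 92.6), but lower in CDK6-K43M replicate 2 (72.7 and 64.0).

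The lowest mean percentiles among the genes in all 4 lists belonged to Snrpb, Lsm8, Snrpb2, Prpf4 and Lsm2. Snrpb, the gene of the Sm proteins B and B′ (chr2:130171414-130179403), had percentiles of 79.4 and 34.0 with CDK6-WT and 64.8 and 4.16 with CDK6-K43M. Lsm8, the subunit that sets the nuclear ring apart from the cytoplasmic one (chr6:18848579-18855751), stayed between 32.0 and 58.4 in every library. Snrpb2, another U2 snRNP protein (chr2:143063039-143072853), stood at 49.7 and 50.1 with CDK6-WT and at 94.4 and 2.44 with CDK6-K43M, so that its 2 CDK6-K43M libraries spanned almost the whole scale. In replicate 2 the Snrpb2 summits of the variants lay 371 bp apart, against 21 bp in replicate 1. The lowest value thus belonged to another summit position. Prpf4, of the U4/U6 particle (chr4:62408797-62426990), had 83.1 and 12.3 with CDK6-WT and 93.0 and 19.5 with CDK6-K43M. For Lsm2 (chr17:34981862-34985891), another ring subunit, the values were 87.9 and 6.94 with CDK6-WT and 78.4 and 41.5 with CDK6-K43M. In Prpf4 and Lsm2 the low mean came from replicate 2 of both variants.

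The SR proteins had a peak in all 4 lists at 9 of 11 genes. Srsf2 (chr11:116849901-116853094) had percentiles of 98.5 and 53.6 with CDK6-WT and 95.7 and 55.4 with CDK6-K43M, and both libraries of a replicate number lay close together. Srsf3 (chr17:29032628-29043373) had 84.3 and 76.7 with CDK6-WT and 89.0 and 26.4 with CDK6-K43M, so that CDK6-K43M replicate 2 was the low library. The replicate 2 summits of Srsf3 lay 340 bp apart between the variants, against 134 bp in replicate 1, so the low value belonged to another summit position. Srsf7 had the widest gap between the variants in replicate 2, with 4.13 for CDK6-WT and 61.2 for CDK6-K43M, beside 96.7 and 95.6 in replicate 1. In replicate 2 the Srsf7 summits of the variants lay 511 bp apart, against 1 bp in replicate 1. The gap thus did not compare the same summit position. Srsf5 had a peak only in replicate 1, at 83.9 and 91.3.

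All 3 U2AF genes had a peak in all 4 lists. U2af2, the large subunit (chr7:5062143-5079938), had percentiles of 76.1 and 61.1 with CDK6-WT and 93.2 and 64.0 with CDK6-K43M. U2af1, the small subunit that reads the last bases of the intron (chr17:31647081-31658892), had 84.3 and 25.5 with CDK6-WT and 92.7 and 64.0 with CDK6-K43M. The low value of CDK6-WT replicate 2 rested on 12 summit reads. The paralog U2af1l4 had 85.6 and 51.7 with CDK6-WT and 70.2 and 48.7 with CDK6-K43M.

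Of the SF3a and SF3b genes, 7 of 9 had a peak in all 4 lists, the exceptions being Sf3b5 and Sf3a1. Sf3b1, the largest subunit and the one that encloses the branch point (chr1:54985169-55027481), had percentiles of 95.9 and 82.2 with CDK6-WT and 99.2 and 44.9 with CDK6-K43M. Sf3a1 had a peak in replicate 1 only, at 92.3 and 81.6. Its absence from replicate 2 was thus not matched by a weak peak in replicate 1.

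The Sm genes were the group with the fewest shared peaks, with 4 of 8 in all 4 lists, whereas all 4 U1 or U2 specific genes and all 7 genes of the LSM2 to LSM8 ring had them. Snrpd1, an Sm protein, had percentiles of 91.7 and 66.4 with CDK6-WT and 86.2 and 42.6 with CDK6-K43M. Of the other Sm genes, Snrpd2 and Snrpf lacked a peak only in CDK6-WT replicate 2, Snrpg lacked one in both replicate 2 lists, and Snrpn lacked one throughout. Each group holds few genes, and the difference between the groups was not tested.

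Among the PRPF genes 9 of 13 had a peak in all 4 lists. Prpf8, the U5 protein at the catalytic centre (chr11:75486816-75509449), had a peak in replicate 1 only, at percentiles 67.9 and 43.1 on 29 and 20 summit reads. Prpf19, the ubiquitin ligase of the PRP19 complex (chr19:10895231-10909559), had 98.3 and 86.3 with CDK6-WT and 98.6 and 33.0 with CDK6-K43M. Its reads were 51 and 27 with CDK6-WT and 64 and 12 with CDK6-K43M.

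**Figure D2:**
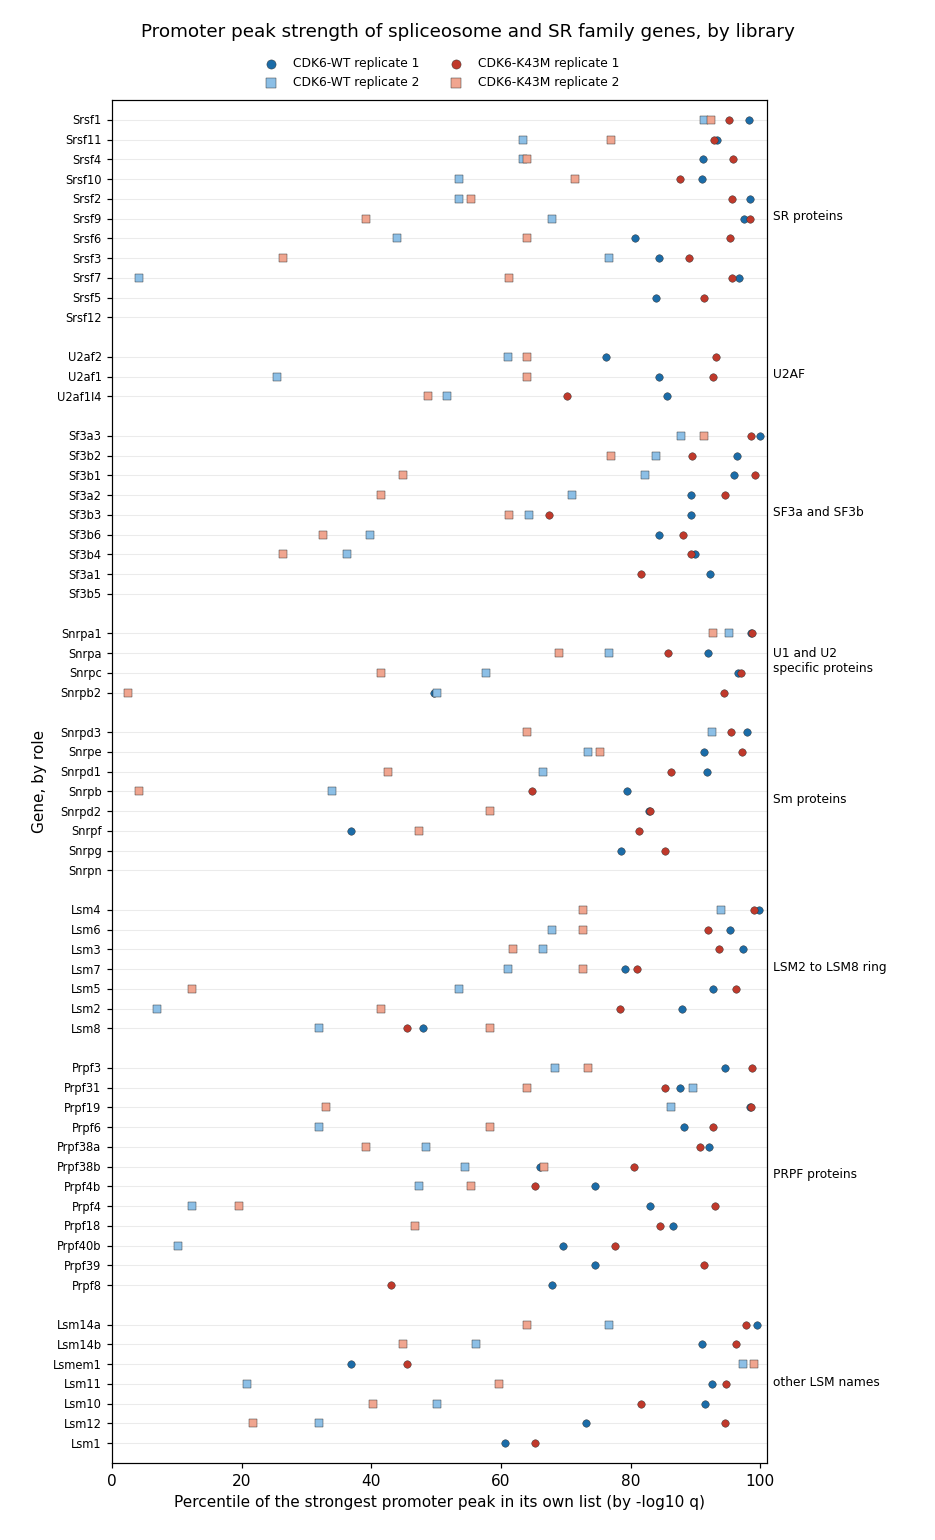
Each row is a gene, grouped by role, with 1 gene left out, and each point is the percentile (0 to 100, within its own list) of its strongest promoter peak in 1 library: circles are replicate 1, squares replicate 2, blue CDK6-WT and red CDK6-K43M. Circles lie right of squares in most rows, and Sf3b5, Snrpn and Srsf12 have no point.

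The replicate number separated the libraries more than the variant did. The median percentile over the 49 genes with a peak in all 4 lists was 91.2 and 93.0 in the replicate 1 libraries of CDK6-WT and CDK6-K43M, and 61.1 and 59.7 in their replicate 2 libraries. Over all 7312 protein-coding genes with such peaks the medians were 84.3 and 86.1 in replicate 1 and 63.4 and 62.8 in replicate 2. The family thus lay above these genes only in replicate 1. In 44 of the 49 genes both replicate 1 percentiles lay above both replicate 2 percentiles, as in 69.4% of the 7312 protein-coding genes with a peak in all 4 lists. Lsmem1, the membrane protein gene, was the single reverse case, with 36.8 and 45.4 in replicate 1 and 97.3 and 99.0 in replicate 2. The median gap between the replicate numbers was 34.0 percentile points for the 49 genes and 20.8 for the 7312 genes. Median summit reads at these promoters were 37 and 50 in replicate 1 and 18.5 and 16 in replicate 2, for CDK6-WT and CDK6-K43M, and the median fold enrichments were 13.3 and 13.4 against 6.44 and 5.91. The peaks were also wider in replicate 1, with median widths of 600 and 714 bp against 389.5 and 331.5 bp.

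The number of genes with a promoter peak was 59 ± 0 (SD, n = 2) in replicate 1 and 51 ± 1.41 in replicate 2, a difference of 8 genes, with p = 0.33 in an exact two-sided permutation test over the 6 assignments of the libraries. This is the smallest p that 2 against 2 libraries allow. What sets the replicate numbers apart is not given in the labels. Since both variants are present in each replicate number, the variants could be compared within it.

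Promoter peaks in both libraries of only one variant were rare throughout and absent at these genes. In 0 of the 62 genes both CDK6-WT lists and neither CDK6-K43M list held a peak (against 0.0817% of all protein-coding genes), and in 0 both CDK6-K43M lists and neither CDK6-WT list did (against 0.241%). At shares this low, counts of 0 say nothing particular about 62 genes. The number of genes with a peak was 54.5 ± 6.36 (SD, n = 2) with CDK6-WT and 55.5 ± 4.95 with CDK6-K43M, a difference of 1 gene (exact two-sided permutation test, p = 1). Within replicate 1 the difference was 0 genes and within replicate 2 it was 2 genes.

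Peak strength did not separate the variants either. The median percentile was 76.1 ± 21.3 (SD, n = 2) with CDK6-WT and 76.4 ± 23.5 with CDK6-K43M, a difference of 0.23 points (exact two-sided permutation test, p = 1). The difference was 1.76 points within replicate 1 and −1.31 points within replicate 2, so that its direction turned with the replicate number. Gene by gene, 25 of the 49 were higher with CDK6-K43M in replicate 1 and 22 in replicate 2. In 12 genes CDK6-K43M was higher in both (24.5%, against 29.1% of the 7312 genes), in 14 it was lower in both (28.6%, against 21.8%), and 23 had opposite signs. The median size of the difference, without its sign, was 4.20 points in replicate 1 and 12.3 in replicate 2. Prpf38b was the single gene with both CDK6-K43M percentiles above both CDK6-WT percentiles, and Prpf31 the single reverse case. For Prpf38b this rested on 66.67 (CDK6-K43M replicate 2) against 66.05 (CDK6-WT replicate 1), and its replicate 2 summits lay 545 bp apart. For Prpf31 the closest values were 85.4 (CDK6-K43M replicate 1) and 87.7 (CDK6-WT replicate 1), and its replicate 2 summits lay 250 bp apart. The share of all genes with either order is not given here.

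**Figure D3:**
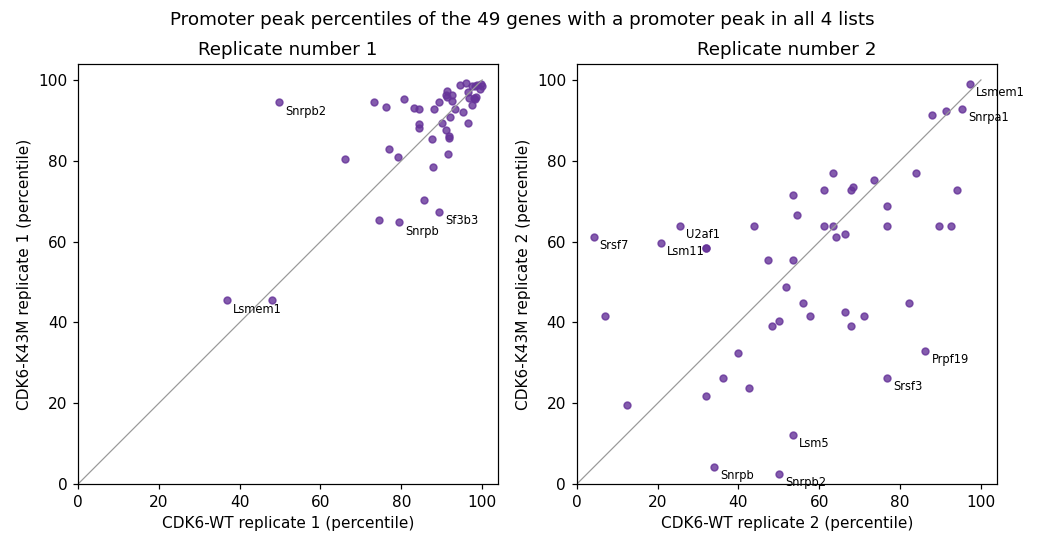
Each point is 1 of the 49 genes with a promoter peak in all 4 lists, with its percentile in CDK6-WT on the horizontal axis and in CDK6-K43M on the vertical axis, for replicate number 1 (left) and 2 (right), and the line marks equal values. Points crowd above percentile 80 on the left and spread along and across the line on the right, with Srsf7, Prpf19, Srsf3 and Snrpb2 far from it.

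For the genes with the largest differences of one sign in both replicate numbers, replicate 2 summits held 12 to 32 reads before scaling. U2af1 was higher with CDK6-K43M by 8.36 points in replicate 1 (50 against 34 reads) and by 38.5 in replicate 2 (16 against 12 reads). The exact Poisson 95% intervals of the 12 and 16 reads, 6.20 to 21 and 9.15 to 26, overlapped over most of their length and cover counting error only. Lsm11, of the U7 particle, was higher by 2.23 and 38.9 points, again on 16 against 12 reads in replicate 2. Srsf6, an SR protein, was higher by 14.6 and 20.1 points, on 16 against 15 reads in replicate 2. Prpf6, which bridges the tri-snRNP, was higher by 4.52 and 26.4 points although both replicate 2 libraries had 15 reads at its summit, with local backgrounds of 2.00 reads in CDK6-WT and 1.57 in CDK6-K43M. Small differences in reads or background thus moved the percentile far. In CDK6-K43M replicate 2, 7 of the genes shared the percentile 64.0, among them U2af1 with 16 reads, whereas Prpf6 with 15 reads at the same background stood at 58.4.

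In the other direction, CDK6-K43M minus CDK6-WT was −14.7 points for Snrpb in replicate 1 (28 against 30 reads) and −29.8 in replicate 2 (12 against 18 reads). For Snrpd3 the differences were −2.48 and −28.6 points, on 16 against 32 reads in replicate 2, with intervals of 9.15 to 26 and 21.9 to 45.2 that overlapped less. They were −5.53 and −23.8 points for Snrpd1 and −2.30 and −25.7 points for Prpf31, of the U4/U6 particle. Reads in replicate 2 were 13 against 19 for Snrpd1 and 21 against 29 for Prpf31. All 8 genes were picked for the size of their difference, so their values are a description, and an exact permutation test of a single gene cannot give a p below 0.33 here.

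The strongest promoter peak mostly had its summit near a transcript start. Peaks were taken from windows around these starts, and the distances were not computed for all protein-coding genes. The distances thus do not mark these genes out from others. The median distance of the summit from the nearest start was −44 and −57 bp with CDK6-WT and −35 and −25 bp with CDK6-K43M, for replicates 1 and 2, where negative values lie upstream. Within 200 bp of a start lay 52 of 59 and 44 of 50 summits with CDK6-WT, and 55 of 59 and 40 of 52 with CDK6-K43M. Over the 49 genes the 4 summits of a gene spanned a median of 98 bp, and in 32 genes they lay within 200 bp of one another. Srsf4 had the widest span, 1244 bp, because the CDK6-WT replicate 2 summit lay 830 bp downstream of a start and the others upstream. U2af2 kept its summit about 1 kb upstream of a start in every library, at −1015 and −983 bp with CDK6-WT and −969 and −921 bp with CDK6-K43M.

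**Figure D4:**
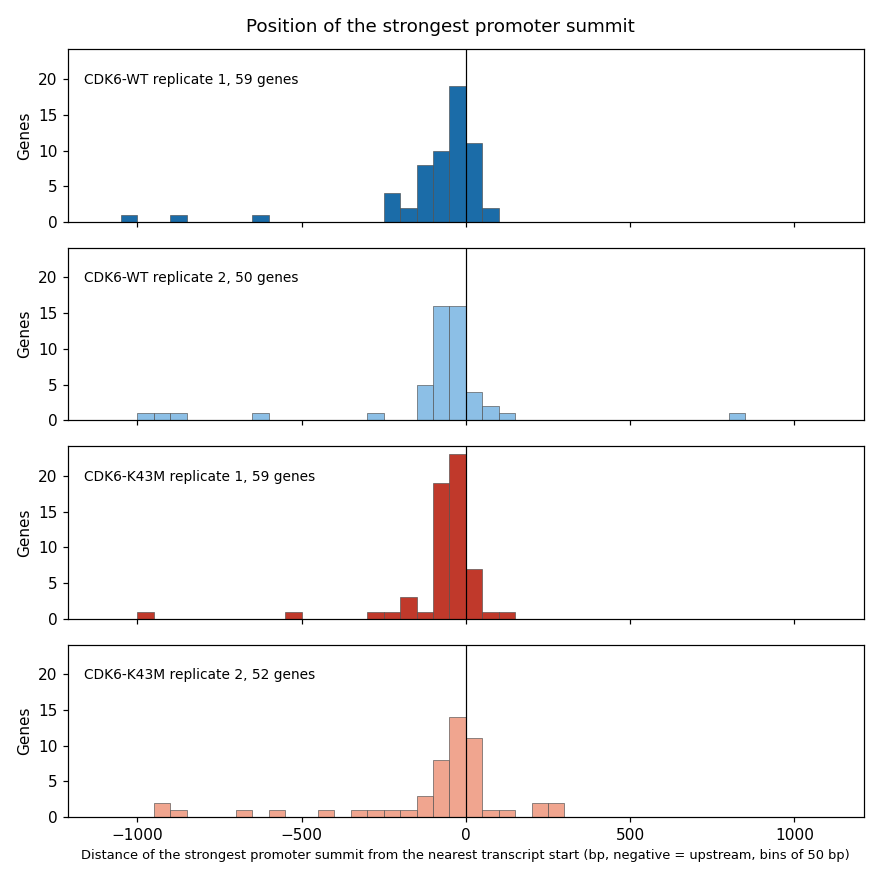
The histograms count genes by the distance (bp, bins of 50 bp, negative values upstream) from the nearest transcript start to the summit of the strongest promoter peak, with 1 panel per library. Most summits lie just upstream of the start in all 4 panels, with medians of −57 to −25 bp, and a few genes, U2af2 among them, lie about 1000 bp upstream.

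Several of these promoters were shared with a neighbour transcribed in the opposite direction. A protein-coding start of the opposite strand lay head to head within 1000 bp in 11 of the 62 genes (17.7%, against 6.77% of all genes), and a peak there cannot be given to one gene of the pair. The pairs included Bag4 and Lsm1, Xpc and Lsm3, Sppl2b and Lsm7, Tfpt and Prpf31, Orc1 and Prpf38a, Cdc26 and Prpf4, Ccdc157 and Sf3a1, Qpctl and Snrpd2, Lrrc40 and Srsf11, and Ttc39d and Srsf7. Of the 11 genes, 8 (72.7%) had a peak in all 4 lists, against 68.2% of all head-to-head genes. Of the 51 others, 41 (80.4%) did, against 30.7% of all genes without such a neighbour.

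Short motifs were searched on both strands within 100 bp of the strongest promoter summit of each of the 59 genes with a peak, and in the same way at the summits of 11399 protein-coding genes. The box of SP1 (GGGCGG) was found at 36 genes (61.0%, against 52.2%) and the CCAAT box of NFY (CCAAT) at 20 (33.9%, against 25.6%). The ETS motif (CCGGAAGT) was found at 10 genes (16.9%, against 8.65%) and the YY1 motif (AAGATGGCG) at 5 (8.47%, against 3.26%). Within 50 bp of the summit the ETS motif was left at 5 genes (8.47%, against 5.72%) and the YY1 motif at 0 (against 1.19%), which turned the direction for YY1. The motif of NRF-1 (GCGCATGCG), the mitochondrial gene regulator that the study examined, was found at 3 genes, Srsf11, Srsf7 and U2af1l4 (5.08%, against 3.75%). RUNX (TGTGGT) was found at 5 genes (8.47%, against 10.4%), the E-box (CACGTG) at 4 (6.78%, against 8.37%), CRE (TGACGTCA) at 2 (3.39%, against 3.08%) and GFY (ACTACAATT) at 0 (against 0.719%). At 53 genes at least 1 motif was found and at 6 none, a count that was not made over the 11399 summits. With these counts a difference of a few genes moves the share by several points, and motif matches describe the letters of the window only.

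**Figure D5:**
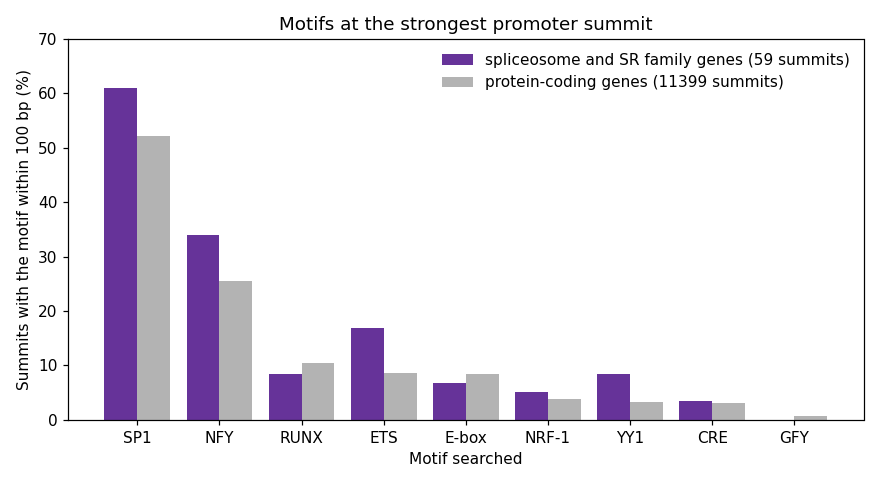
Bars give the share (%) of strongest promoter summits with a motif within 100 bp, for 59 spliceosome and SR family genes and 11399 protein-coding genes, by motif. The shares lie at 61.0% and 52.2% for SP1 and at 16.9% and 8.65% for ETS.

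The ETS sites nearest to a summit are printed with the motif in capitals, because they show how close to the summit this motif lay in Sf3a3, Snrpb, Sf3a1 and Srsf4. Their distances from the strongest summit of the gene were 5, 11, 17 and −18 bp in genome coordinates. The 28 bases of each are read along the motif, at chr4:124714760-124714787 (− strand), chr2:130179363-130179390 (−), chr11:4160337-4160364 (+) and chr4:131873416-131873443 (−).
Sf3a3 ETS site: tccgcgtgtcCCGGAAGTgtcttggggg
Snrpb ETS site: cgaggccggaCCGGAAGTagcttcacta
Sf3a1 ETS site: gagggcgggaCCGGAAGTgctcccgcgg
Srsf4 ETS site: ggcacttcccCCGGAAGTgcctgcgcgg
Sf3a3 was among the strongest promoters of the family and Snrpb the one with the lowest mean percentile of those in all 4 lists, although both had an ETS motif within 11 bp of the summit.

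The 2 NRF-1 sites within 50 bp of a summit belonged to SR protein genes and are shown because NRF-1 was a factor of interest to the study. That of Srsf7 lay at chr17:80207353-80207380 (+ strand) and that of Srsf11 at chr3:158031758-158031785 (+ strand), where an ETS motif of the same peak begins a few bases further on.
Srsf7 NRF-1 site: tttttttctGCGCATGCGttgtgtcaac
Srsf11 NRF-1 site: cgcccgcccGCGCATGCGcccatatccc

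Other genes of the splicing machinery, listed by complex, had promoter peaks about as often. These lists were drawn up with earlier results of these data known. Of 110 such genes found in the annotation, 89 (80.9%) had a peak in all 4 lists, and their median percentiles over genes in all 4 lists were 90.7 and 62.1 with CDK6-WT and 91.6 and 61.2 with CDK6-K43M. By complex the counts were 23 of 25 for other U snRNP proteins, 21 of 24 for hnRNP proteins, 12 of 14 for SR kinases and SR-related proteins, 7 of 8 for the exon junction complex, 13 of 18 for the PRP19 complex and activation factors, 6 of 9 for helicases and second step factors, and 7 of 12 for SMN complex and Sm assembly. The proteasome and the ribosome served as other widely used machineries, with 26 of 39 proteasome genes (66.7%) and 53 of 81 cytosolic ribosomal protein genes (65.4%) in all 4 lists. The shares were not tested against one another, since genes are not replicates.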

How the data were processed

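ChIP-seq against HA was deposited as 1 peak list per library. Per the labels and the study's methods, reads were trimmed by the authors (Trimmomatic 0.36) and mapped to mm10 with BWA 0.7.15. They removed blacklisted regions and multimapping or low-quality reads and called peaks per library with MACS2 2.1.0. Reads that match near-identical copies are thus missing. The deposited columns hold the ratio of the summit to the local background (fold enrichment), −log10 values of p and q, an integer score equal to 10 times the −log10 q without its decimals, and the offset of the summit as other information. The lists start near a q-value of 0.05 and give no read totals, so depth is known only through the summit reads. These were solved from fold enrichment and −log10 p with 1 scaling factor per list (0.9698, 0.9196, 0.8119 and 1 for CDK6-WT replicates 1 and 2 and CDK6-K43M replicates 1 and 2). In a sample of peaks from each list 100% gave whole reads within 0.002 of the −log10 p. The recovery was tested on simulated data.

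The 62 members and the comparison lists were chosen with earlier results of these data known. Promoters covered 2000 bp before and 200 bp after any GENCODE M21 transcript start, and sequences came from the RefSeq GRCm38 genome. Named genes were 11 set ones (Srsf1, Srsf2, Srsf3, Sf3b1, U2af1, U2af2, Prpf8, Prpf19, Snrpd1, Snrpn, Lsm2), the 5 highest and 5 lowest mean percentiles, genes with a peak in 0 or 1 list, and the 4 largest differences between variants in each direction with the same sign in both replicate numbers. Other genes were named after their values were seen. Of the listed spliceosome genes, Nhp2l1 was not found in the annotation. Groups of libraries were compared by exact permutation (two-sided, 6 assignments). Python 3.11.15, numpy 2.4.6, pandas 2.3.3, scipy 1.17.1, pysam 0.24.0 and bedtools 2.31.1 were used. Alternatives covered peak strength, list length, summit position, promoter window, annotation, ranking, gene membership, the replicate block and each library left out. Of the members, 1 gene is counted but not described by name, and 1 promoter sequence is not reported here.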

Additional observations from a re-analysis of the deposited data

How the results depend on the processing

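The count of 49 genes with a promoter peak in all 4 lists was 40 to 48 under a narrower window, summits inside the promoter, lists of equal length, gene-model starts or RefSeq starts, and 34 at a −log10 q of at least 5. It fell to 8 at a −log10 q of at least 10 and to 5 among the 10000 strongest peaks per list, where the count in at least 3 lists was 20 and 15. The excess of the members' share over that of all genes, 45.8 percentage points, was 31.3 at a −log10 q of 5, 4.49 at 10, 2.08 among the 10000 strongest, 41.9 with 500 bp to either side of a start and 36.8 with gene-model starts. Leaving out 1 library at a time gave 49 to 52 genes in all remaining lists or in 3 of them, and an excess of 43.2 to 47.5 points. The difference between replicate numbers kept its direction under all alternatives run. From 8 genes it went to 17.5 and 40.5 at a −log10 q of 5 and 10, 40 among the 10000 strongest, 11.5 with gene-model starts and 7 to 9 with a library left out.

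The difference in genes with a peak between the variants turned to −2.5 at a −log10 q of 10, −3 among the 10000 strongest and −0.5 with gene-model starts, and ran from −3.5 (without CDK6-WT replicate 2) to 5.5 (without CDK6-WT replicate 1). It was −2.5 without CDK6-K43M replicate 1 and 4.5 without CDK6-K43M replicate 2. The difference in median percentile turned to −0.56 and −4.54 at a −log10 q of 5 and 10, −0.18 with gene-model starts and −1.53 when ranked by fold enrichment, and ran from −16.4 (without CDK6-K43M replicate 1) to 17.7 (without CDK6-K43M replicate 2), with −15.4 and 15.3 without CDK6-WT replicates 2 and 1. Leaving out a library of one variant leaves it with only 1 replicate number, so that the gap between the numbers enters the difference by construction. With the replicate block the differences were 1 gene and 0.23 points (exact permutation of signs within the number, p = 1, smallest possible 0.5). The libraries share only a number in the labels: replicate 1 minus replicate 2 correlated between the variants at r = 0.573 across 7312 genes and 0.451 across the 49 members, which are not independent replicates and are only 2 pairs.

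Motif counts moved with the window. Within 50 bp of the summit ETS was found at 5 genes (8.47%, against 5.72% of all genes), NFY at 12 (20.3%, against 14.9%), YY1 at 0 (against 1.19%) and RUNX at 1 (1.69%, against 5.58%), and from 250 bp upstream to 50 bp downstream of the gene start YY1 was found at 3 and RUNX at 9. The use of RefSeq starts, and the leaving out of the 7 genes outside the spliceosome, were chosen after seeing the data. With RefSeq starts Sf3b5 rose from 0 to 4 lists, and Prpf38b, Snrpb2 and Srsf7 went from 4 to 3. Summits of these genes held 8 to 55 reads in replicate 2 and 15 to 83 in replicate 1, and whether depth or enrichment sets this apart was not tested.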
